A study of Fragaria vesca with 18 samples.

Results

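The wild strawberry genome assembly holds sequence that was not assigned to a chromosome and is kept as numbered contigs. The 103 genes described here are all annotated genes of the count table whose id places them on a contig other than contig 1. They were chosen by id alone, not by any measured value, and lie on 18 contigs. The table holds 28588 annotated genes, of which 28411 lie on 7 chromosomes and 74 on contig 1, among 61763 rows that also include long non-coding RNAs (lncRNAs). None of the 103 ids could be paired with a row of the reference gene table, which has 24946 rows, so no symbol, product or role is given for any of them. No sequence or length of these genes was used here. A count is therefore the number of reads a gene took, not its level per length.

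Unplaced contigs of a plant genome often hold repeats, pieces of organelle DNA or copies that an assembler could not order. An annotated gene on such a contig may be an ordinary nuclear gene or one of these. Libraries of rRNA-depleted RNA hold transcripts with and without a poly(A) tail. Depletion of poly(A) RNA removes most mature messenger RNA and leaves a larger part of the library to transcripts without a tail.

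The fruit came from Fragaria vesca Hawaii4, a diploid strawberry accession used as a reference, grown in a greenhouse. The 6 groups were immature fruit with green achenes (the dry fruitlets on the receptacle, here the green stage), fruit with yellow achenes and mature fruit with brown achenes, each as rRNA-depleted and as poly(A)-depleted libraries. Each group had 3 biological replicates, and each replicate pooled fruit of at least 5 plants. All libraries were stranded paired-end libraries from TRIzol total RNA, and no treatment was given. The pools hold all cell types of the fruit, so fewer cells of a type and less RNA per cell cannot be told apart.

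The libraries differed in depth and make-up. Total counts per library ranged from 9488099 to 20433666 in poly(A)-depleted and from 47224793 to 76903885 in rRNA-depleted libraries. The share of counts on intergenic lncRNA rows was 5.44 to 16.8% in poly(A)-depleted and 1.49 to 5.02% in rRNA-depleted libraries. Poly(A)-depleted brown replicate 1 had the lowest of the former range, and rRNA-depleted brown replicate 3 the highest of the latter. TMM scaling factors, which set each library's counts against the others, ranged from 0.320 in rRNA-depleted yellow replicate 2 to 2.66 in poly(A)-depleted brown replicate 3. Counts of called genes are given below also without some of these libraries, singly or together. Numbers of genes detected, summed CPM and correlations were not recomputed without single libraries. Values per gene are CPM, the count set against the library's total count after TMM scaling over all 18 libraries, unless a share of counts is named.

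Most of the 103 genes took few reads. Of them, 2 had no count in any library, a further 14 had 1 to 9 counts over all 18 libraries, and 56 had counts in every library. A library with no count for a gene allows up to 3 counts, which is 0.0390 CPM of the total in the deepest and 0.316 CPM in the shallowest library. At least 1 CPM in all 3 libraries of a group was reached by 52, 52 and 48 genes in the green, yellow and brown poly(A)-depleted groups. In the rRNA-depleted groups the numbers were 44, 38 and 43. Of the 103, 55 reached it in at least 1 group and 34 in all 6 groups, while 49 had a mean under 1 CPM over the 18 libraries.

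Contig 3 held nearly all of the reads. Its 23 genes took 97.0 to 98.9% of the counts of the 103 genes in poly(A)-depleted and 98.0 to 98.9% in rRNA-depleted libraries. All 20 genes with a mean over 100 CPM were among them. The 103 genes together took 1.76 ± 0.116% (SD, n = 3), 2.14 ± 0.534% and 1.64 ± 0.0715% of all counts over the 3 stages (green, yellow, brown) in the poly(A)-depleted kind. The rRNA-depleted kind had 0.875 ± 0.0493%, 0.604 ± 0.225% and 0.670 ± 0.186%. Every poly(A)-depleted library thus had a higher share than every rRNA-depleted library, with a range of 1.57 to 2.65% against 0.383 to 0.906%. The other 80 genes took 0.0185 to 0.0514% in poly(A)-depleted and 0.00672 to 0.0172% in rRNA-depleted libraries, and these ranges did not overlap either. Wilson 95% intervals of these shares of the 103 genes, which cover counting error only, were at most 0.0205 percentage points wide.

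After TMM scaling the sum over contig 3 had group means between 9829 and 12590 CPM. From green to brown fruit, rRNA-depleted libraries had 11688 ± 878, 11802 ± 2346 and 11130 ± 2489 CPM. Poly(A)-depleted libraries had 12590 ± 1135, 9829 ± 2246 and 10656 ± 4822 CPM. The share of counts and the scaled sum therefore differ in whether they set the 2 kinds of library apart, and the scaling decides it. All SD here and below are over the 3 replicates of a group.

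**Figure D1:**
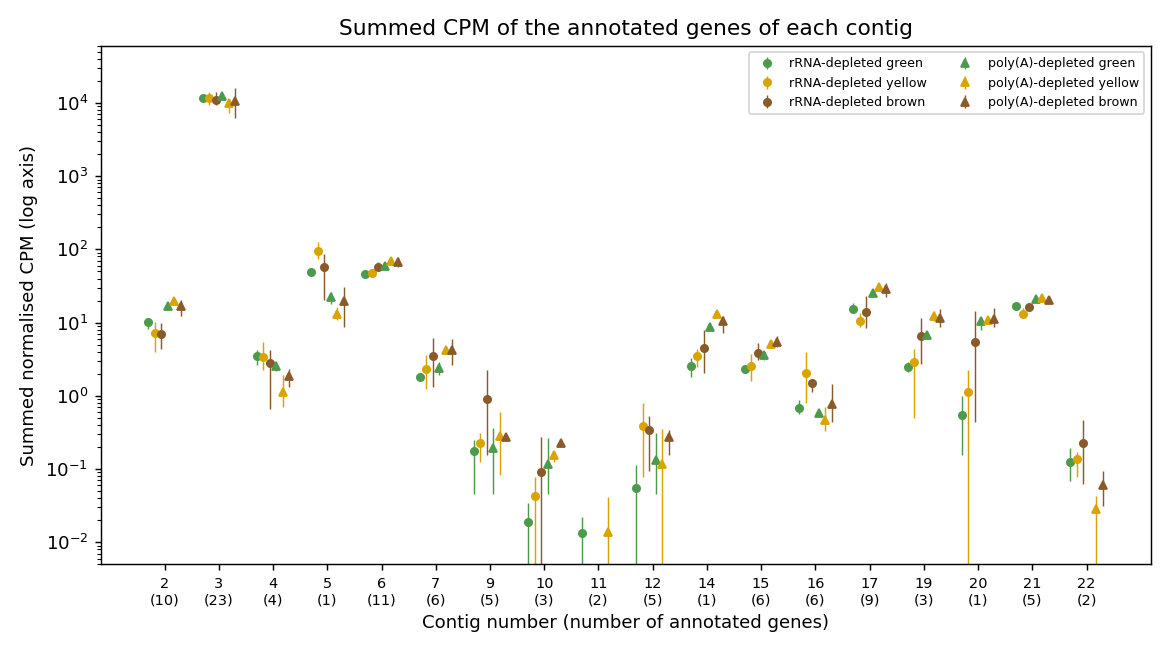
Summed CPM after TMM scaling (log axis) of the annotated genes of each contig, with the number of genes in brackets; points are means of 3 libraries and bars run from the lowest to the highest library, reaching the lower edge where a library had 0. Groups with a mean under the lower edge are not drawn. Contig 3 stands at means of 9829 to 12590 CPM in the 6 groups, above every other contig.

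Outside contig 3, contigs with at least 5 annotated genes ranged from a few genes near 9 CPM down to near 0. On contig 6, 10 of 11 genes reached 1 CPM in every library of at least 1 group, with a median mean of 4.68 CPM and a highest of 9.43 CPM. On contig 2, with 10 genes, the median was 0.776 and the highest 3.53 CPM, and on contig 17, with 9 genes, 0.627 and 9.67 CPM. On contig 21, with 5 genes, they were 3.06 and 8.42 CPM. Contig 15 (6 genes) had a highest mean of 1.93 CPM and contig 7 (6 genes) of 2.08 CPM. No gene of contigs 9, 12 and 16 reached the 1 CPM level in all libraries of a group, and their highest means were 0.178, 0.106 and 0.734 CPM. The 1 gene of contig 5, FvH4_c5g00010, had the highest mean outside contig 3, at 42.7 CPM over the 18 libraries.

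The 6 genes with the highest mean scaled CPM over the 18 libraries, both kinds together, were all on contig 3. FvH4_c3g00060 had the highest mean, 1274 CPM, although FvH4_c3g00120 had more raw counts (704249 against 636625) and a higher mean in each rRNA-depleted group. In rRNA-depleted libraries it was at 571, 528 and 457 CPM at the green stage, 713, 493 and 1388 at the yellow stage and 698, 933 and 1838 at the brown stage. With poly(A) RNA depleted it was at 1573, 1234 and 1014, then 2196, 1726 and 2399, then 1556, 2484 and 1127 CPM. At the green and yellow stages the 2 kinds did not overlap, with the poly(A)-depleted libraries higher, and at the brown stage they did overlap, through rRNA-depleted replicate 3.

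FvH4_c3g00120 (mean 1202 CPM) had the opposite order. It was at 1503, 1373 and 1422 CPM at the green, 1730, 2747 and 1092 at the yellow and 2314, 1532 and 1181 at the brown stage in rRNA-depleted libraries. Without poly(A) RNA its values were 1010, 852 and 1047, then 596, 379 and 185, then 1709, 693 and 274 CPM. The green and yellow groups did not overlap, with rRNA-depleted libraries higher. At the brown stage poly(A)-depleted replicate 1 lay within the rRNA-depleted range.

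By the same mean the other 4 were FvH4_c3g00080 (mean 993 CPM), FvH4_c3g00150 (898 CPM), FvH4_c3g00170 (826 CPM) and FvH4_c3g00050 (726 CPM). FvH4_c3g00080 had group means of 766 ± 286 to 1201 ± 186 CPM and FvH4_c3g00150 of 642 ± 187 to 1096 ± 770 CPM. For both, groups next to each other in the order of the 6 means differed by less than the larger of their SDs. FvH4_c3g00170 was lowest in yellow poly(A)-depleted libraries (608 ± 229 CPM) and highest in green ones (1172 ± 96.3 CPM). FvH4_c3g00050 was at 309 ± 26.8, 457 ± 269 and 597 ± 340 CPM from green to brown fruit in the rRNA-depleted kind, below its 869 ± 181, 1211 ± 306 and 914 ± 343 CPM in poly(A)-depleted ones.

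The genes of contig 3 did not move as 1 block. After their values were seen, 2 sets were marked by the number in the id, which is taken here as the gene's order since annotated positions of these genes were not used. One holds gene numbers 50, 60, 70 and 90 (4 genes), and the other runs from 100 to 230 (14 genes) with 210, 220 and 230 as its last 3. Over the 18 libraries, values on the log2(CPM + 0.5) scale had a median pairwise Pearson r of 0.939 among the 4 genes (6 pairs) and of 0.689 among the 14 genes (91 pairs). Between the sets the median was -0.545 (56 pairs, range -0.794 to -0.124). Within the 9 rRNA-depleted libraries it was -0.657 and within the 9 poly(A)-depleted libraries -0.266. The values share library, depth and scaling, and the sets were picked from them, so these correlations only describe the choice.

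**Figure D2:**
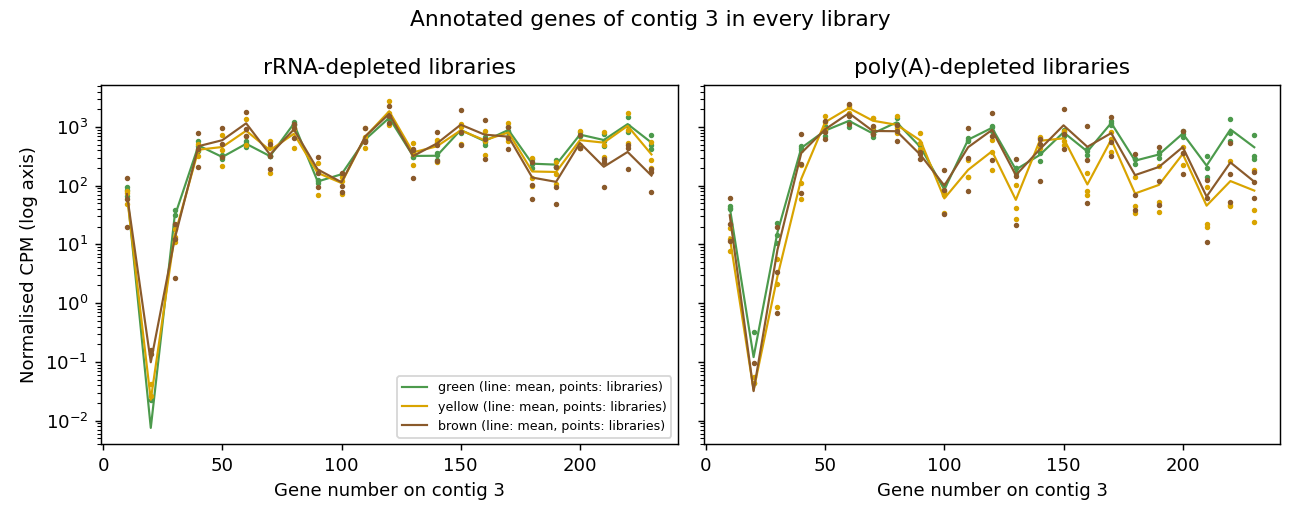
TMM-scaled CPM (log axis) of the 23 annotated genes of contig 3 against gene number, with lines for group means and points for libraries; a library at 0 has no point. By the mean over the 18 libraries, gene number 20 lies near 0 (0.0523 CPM), 30 and 10 at 13.9 and 51.5 CPM, and the rest above 100 CPM. Some group means and libraries of the rest lie lower, down to 10.8 CPM for gene number 210 in poly(A)-depleted brown replicate 3. The yellow poly(A)-depleted mean was the lowest of the 6 groups for 16 of the 22 genes with a mean over 1 CPM, gene numbers 210 to 230 among them.

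A part of the contig 3 counts within a library does not depend on scaling between libraries. Gene numbers 50, 60, 70 and 90 made up 10.7, 11.8 and 9.99% of the contig 3 counts in the 3 green rRNA-depleted libraries. Their part at the yellow stage was 12.5, 7.99 and 31.2%, and brown libraries had 9.28, 19 and 38.9%. The green libraries were close together, while yellow replicate 3 and brown replicate 3 stood well above the others.

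At the green and yellow stages, every library depleted of poly(A) RNA gave the same 4 genes a larger part than any rRNA-depleted library of that stage. Their part was 29.8, 29.5 and 21.3% at the green, 46.4, 56.1 and 57.4% at the yellow and 21.8, 52.4 and 45.5% at the brown stage. Every yellow library was above every green one, and brown replicate 1 lay among the green libraries. At the brown stage the kinds overlapped, with this replicate below rRNA-depleted replicate 3 (38.9%). Without brown replicate 1, the 2 remaining brown libraries were both above the green ones. The widest Wilson 95% interval of any of these 18 values was 0.472 percentage points.

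The share of counts on intergenic lncRNA rows was also high in several of the libraries where this part was high, but not in step with it throughout. In rRNA-depleted libraries it was 5.02% in brown replicate 3 and 2.67% in yellow replicate 3, the highest of that kind, against 1.49 to 2.40% in the other 7. The poly(A)-depleted kind had 5.7 to 7.28% at the green and 11.8 to 15.4% at the yellow stage. It was 5.44, 11 and 16.8% in brown replicates 1 to 3, where replicates 2 and 3 had the opposite order in the part of the 4 genes (52.4 and 45.5%). The share of counts on contig 1 genes ran from 4.06 to 4.29% at the green and 13.4 to 16.4% at the yellow stage of the poly(A)-depleted kind, with 4.93, 8.62 and 13.7% in the brown libraries. In the rRNA-depleted kind the contig 1 share was 3.41% in brown replicate 3. It was 2.58% in yellow replicate 3, under the 2.70% of yellow replicate 1, and 2.31 to 2.37% at the green stage. The part of these library differences in the contig 3 values was not tested.

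The genes with the highest numbers, also marked after their values were seen, had parts that went the other way. Parts of 1 total are not independent, since a larger part for some genes leaves a smaller part for the rest. Gene numbers 210, 220 and 230 made up 16.7, 15.9 and 25.5% of the contig 3 counts in green, 21.8, 14.2 and 10.9% in yellow and 6.96, 8.64 and 3.89% in brown rRNA-depleted libraries. The poly(A)-depleted kind had 9.79, 8.87 and 18.7%, then 4.76, 1.27 and 0.993%, then 5.30, 2.81 and 2.86%. Brown libraries lay below green ones in both kinds. In yellow fruit, the values lay below the green ones in poly(A)-depleted libraries but overlapped them in rRNA-depleted ones.

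**Figure D3:**
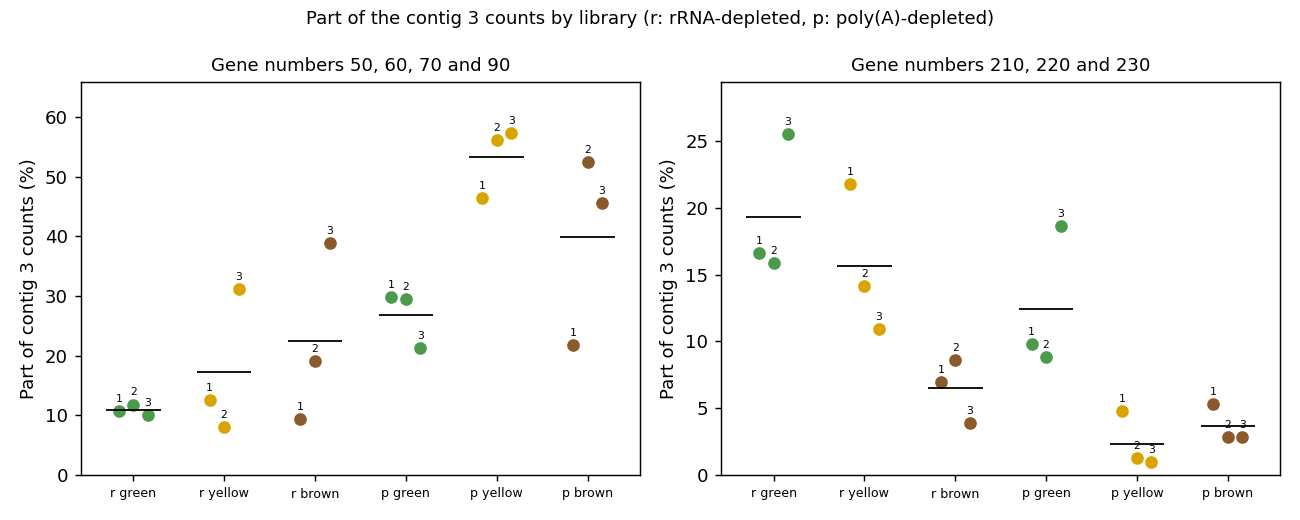
Part of the contig 3 counts (%) taken by gene numbers 50, 60, 70 and 90 (left) and by 210, 220 and 230 (right) in each library; points are labelled by replicate and lines are group means. On the left the yellow poly(A)-depleted libraries sit at 46.4 to 57.4% and the green rRNA-depleted ones at 9.99 to 11.8%; on the right both yellow and brown poly(A)-depleted libraries sit at or under 5.30%.

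The first comparison set the 9 poly(A)-depleted against the 9 rRNA-depleted libraries, averaged over the stages, and asked which genes keep or gain reads when poly(A) RNA is removed. Of the 103 genes, 75 had enough reads to be tested. With edgeR's quasi-likelihood test and Benjamini-Hochberg adjustment over all rows, 46 of the 75 (61.3%) were called at an adjusted p under 0.05, against a background of 77.2% of all 52101 rows tested. Of the 75 tested, 33 were called with more and 13 with fewer scaled reads in the poly(A)-depleted kind. Of all 52101 rows tested, 22420 (43%) were called higher and 17788 (34.1%) lower. The part of the 75 called higher was thus near the background, and the part called lower was under it. The median log2 fold change was 0.86 over the 75 genes and 0.40 over all rows. It was 1.17 over the 73 tested genes of contig 1, 0.90 over lncRNA rows and -0.21 over genes on chromosomes.

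The split into higher and lower depends on the scaling. With TMM factors computed from annotated genes alone it was 39 higher and 7 lower, beside 50.3% of all rows called higher. With library size alone it was 57 higher and 2 lower, beside 68% of all rows called higher. The median of all rows moved from 0.40 to 0.84 and 1.88 under these settings. Directions in this comparison are therefore relative to the scaling over all rows. Without poly(A)-depleted brown replicate 1, rRNA-depleted brown replicate 3 and rRNA-depleted yellow replicate 2, an alternative chosen after seeing the data, 35 were higher and 17 lower, beside 83.3% of all rows called.

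The contigs differed in how their genes fell. On contig 3, 4 of 22 tested genes were higher and 7 lower, and their log2 fold changes had a median of -0.48. On the other contigs, 29 of 53 tested genes were higher and 6 lower (median 1.03). Contigs 2, 17 and 19 had 5, 5 and 3 genes higher and none lower, of 9, 8 and 3 tested, and contig 6 had 7 higher and 3 lower of 11. The difference between contigs was not tested.

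The 4 higher genes of contig 3 were gene numbers 50, 60, 70 and 90, with log2 fold changes of up to 1.53, and under the other 2 scalings they were still higher (1.46 to 1.94 and 2.41 to 2.92). FvH4_c3g00060, the lowest of the 4 (SE 0.42, edgeR, adjusted p = 0.0287), lost its call when any 1 of 7 libraries was left out. These were poly(A)-depleted brown replicate 2, rRNA-depleted green replicates 2 and 3, yellow replicates 1 and 2, and brown replicates 1 and 2. The 7 lower genes were gene numbers 10, 30, 120, 130, 160, 210 and 220, with log2 fold changes of -2.24 to -1.25, and 4 of these turned positive with library size alone, by at most 0.18. FvH4_c3g00210 was the only 1 of the 7 still called lower under that scaling, at -0.87. FvH4_c3g00120 (-1.25 ± 0.45, adjusted p = 0.0171) was not called without poly(A)-depleted green replicate 2, yellow replicate 3 or brown replicate 2. The calls of 3 more of the 7 were also lost without 1 library, that of FvH4_c3g00160 for any of 6 libraries, of FvH4_c3g00220 for any of 4 and of FvH4_c3g00030 for any of 3. For FvH4_c3g00160 these were poly(A)-depleted green replicates 2 and 3, yellow replicates 2 and 3 and brown replicate 2, and rRNA-depleted brown replicate 1. FvH4_c3g00220 lost it without poly(A)-depleted green replicate 2, yellow replicate 2 or 3 or brown replicate 2, and FvH4_c3g00030 without poly(A)-depleted yellow replicate 2, brown replicate 2 or rRNA-depleted brown replicate 1.

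FvH4_c3g00070 was chosen by size among the called genes whose libraries did not overlap within any stage. It was at 323, 318 and 317 CPM at the green, 465, 163 and 577 at the yellow and 192, 316 and 510 at the brown stage in rRNA-depleted libraries. Poly(A)-depleted libraries had 902, 762 and 665, then 1397, 1018 and 1431, then 769, 1045 and 755 CPM. All poly(A)-depleted libraries were above all rRNA-depleted ones. The log2 fold change was 1.43 ± 0.37 (SE; edgeR, adjusted p = 0.00168).

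FvH4_c6g00010, on contig 6, was higher by a like amount at a far lower count. It was at 1.44, 2.02 and 1.35 CPM at the green, 2.43, 1.21 and 3.37 at the yellow and 2.39, 3.63 and 5.32 at the brown stage in rRNA-depleted libraries. Poly(A)-depleted libraries had 4.76, 4.6 and 3.93, then 6.71, 10.7 and 8.64, then 6.76, 8.88 and 6.12 CPM. The kinds did not overlap within any stage. The log2 fold change was 1.43 ± 0.22 (edgeR, adjusted p = 1.70e-05).

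The 2 largest falls under the same rule were FvH4_c16g00050 and FvH4_c6g00080. FvH4_c16g00050 was at 0.505 to 3.66 CPM in the rRNA-depleted and 0.0831 to 0.577 CPM in the poly(A)-depleted libraries, without overlap within a stage, with a log2 fold change of -1.91 ± 0.48 (edgeR, adjusted p = 0.00137). The call was lost with library size alone (-0.27). Each poly(A)-depleted library held only 2 to 10 counts of this gene. As CPM of the library total the kinds overlapped within every stage, so the lack of overlap rests on the scaling. At the brown stage poly(A)-depleted replicate 2 was at 0.891 and the rRNA-depleted libraries at 0.593 to 0.711. FvH4_c6g00080 was at 9.96, 9.45 and 13.6 CPM at the green, 10.9, 15.4 and 10.4 at the yellow and 15.8, 15.9 and 8.94 at the brown stage in rRNA-depleted libraries. The poly(A)-depleted values were 7.2, 7.08 and 7.31, then 6.04, 5.4 and 4.86, then 7.28, 8.65 and 5.53 CPM. Its log2 fold change of -0.90 ± 0.17 (edgeR, adjusted p = 0.00013) reversed to 0.62 with library size alone, so its direction rests on the scaling.

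**Figure D4:**
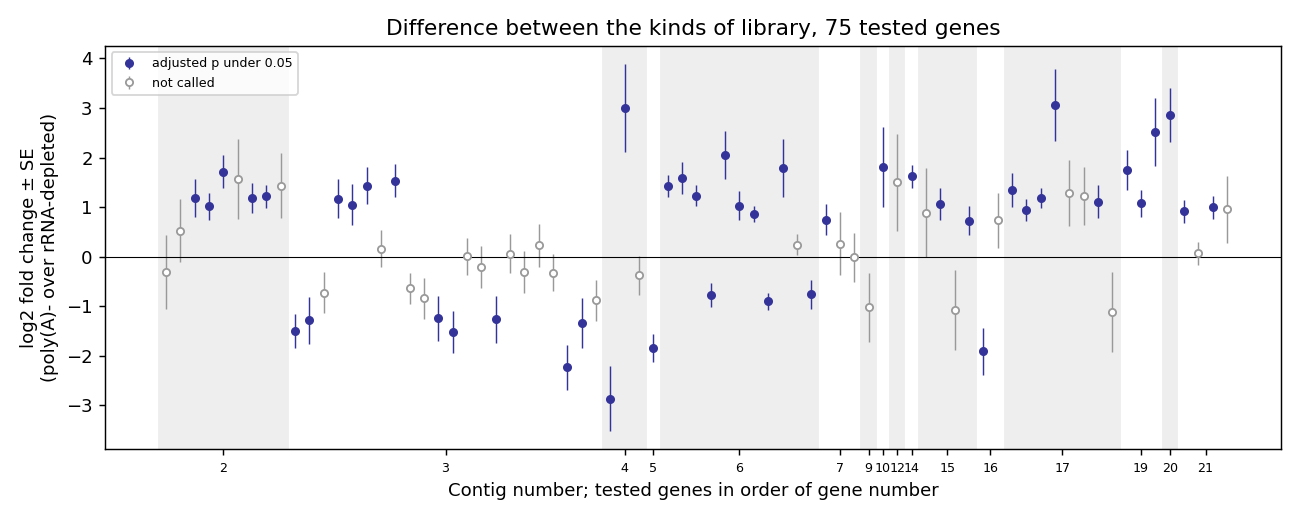
Log2 fold change (± SE) of poly(A)-depleted over rRNA-depleted libraries for the 75 tested genes, ordered by contig and gene number; filled points were called at an adjusted p under 0.05 and shaded bands mark alternate contigs. On contig 3, 4 called points lie above 1 and 7 called points lie below -1, while 29 of the 35 called genes on other contigs are positive.

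The interaction of stage and kind asked whether the stages differ by another amount in the 2 kinds of library. None of the 75 genes was called by edgeR, against a background of 0.0845% of all rows (44 of 52101). At an unadjusted p under 0.05 there were 2 of the 75 genes, beside 9869 of all 52101 rows. DESeq2 called 0, beside 5.38% of all rows. The 2 genes were FvH4_c2g00060 (edgeR, adjusted p = 0.215) and FvH4_c5g00010 (edgeR, adjusted p = 0.263). With the replicate number within each stage as a block, an alternative chosen after seeing the data, 4 genes were called, beside 17.4% of all rows. These were FvH4_c5g00010 (edgeR, adjusted p = 0.013), FvH4_c3g00220 (0.0197), FvH4_c3g00210 (0.036) and FvH4_c3g00010 (0.0413), and FvH4_c2g00060 was not called (0.334). Without the 3 libraries that stand apart, FvH4_c2g00020 (edgeR, adjusted p = 0.0408) and FvH4_c5g00010 (0.0431) were called, beside 19.8% of all rows. The interaction result for all rows, and with it for these genes, therefore depends on the block and on those libraries.

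FvH4_c5g00010 was at 47.6, 45.4 and 53.8 CPM at the green, 85.4, 125 and 73.1 at the yellow and 87.2, 66.3 and 20.3 at the brown stage in rRNA-depleted libraries. In the other kind it was at 22.7, 18.2 and 26.4, then 16.3, 12 and 10.9, then 30.7, 19.3 and 8.73 CPM. After TMM scaling, yellow libraries were above green ones in the rRNA-depleted kind and below them in the poly(A)-depleted kind. This difference did not pass the adjusted test without a block. As CPM of the library total, yellow and green overlapped in both kinds. Green replicate 3 was at 41.1 and yellow replicate 2 at 39.9 in the rRNA-depleted kind. Green replicate 2 was at 26.2 and yellow replicate 1 at 30.6 in the poly(A)-depleted kind. Between kinds FvH4_c5g00010 was lower in poly(A)-depleted libraries by edgeR after TMM scaling (log2 fold change -1.85 ± 0.28, adjusted p = 1.43e-05). On library totals the kinds overlapped, at 23.2 to 34.8 CPM in poly(A)-depleted and 18.7 to 49.5 CPM in rRNA-depleted libraries.

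Among rRNA-depleted libraries, 65 of the 103 genes were tested across stages. Between brown and green fruit 7 of them (10.8%) were called by edgeR, all lower in brown fruit, against a background of 14.5% of all 49283 rows called (4.35% higher and 10.1% lower). The share of these genes was thus near the background. The 7 were gene numbers 210, 220 and 230 of contig 3 and 4 genes on contigs 2, 15 and 21.

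FvH4_c3g00230 was at 486, 419 and 721 CPM in green, 553, 273 and 199 in yellow and 196, 172 and 77.5 in brown rRNA-depleted libraries. Brown and green libraries did not overlap. Yellow replicate 1 lay among the green libraries and the other 2 between the groups. The log2 fold change of brown over green was -2.15 ± 0.50 (edgeR, adjusted p = 0.00941), and it was not called without green replicate 3 (-1.86, adjusted p = 0.0544). The genes numbered just before it, FvH4_c3g00210 and FvH4_c3g00220 (named after their values were seen), fell by 1.81 and 1.86 on the log2 scale (edgeR, adjusted p = 0.0273 and 0.0343). Their calls were lost without any 1 of the 3 green libraries or without brown replicate 2 or 3, and that of FvH4_c3g00220 also without brown replicate 1.

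FvH4_c2g00060 was at 1.78, 1.41 and 2.5 CPM in green, 1.67, 0.749 and 1 in yellow and 0.628, 0.435 and 0.184 in brown rRNA-depleted libraries. Its log2 fold change of brown over green was -2.48 ± 0.70 (edgeR, adjusted p = 0.0271), lost without any 1 green library or brown replicate 2. The poly(A)-depleted values were 2.17, 3.05 and 2.79, then 2.52, 5.15 and 3.95, then 1.33, 1.96 and 5.81 CPM, and the groups overlapped. The count of 7 genes fell to 2, 1 and 0 without green replicates 1, 2 and 3, beside 8.66%, 8.53% and 7.96% of all rows. Without brown replicate 2 it was 1, beside 11.1% of all rows. Without rRNA-depleted brown replicate 3 and yellow replicate 2 together, an alternative chosen after seeing the data, it was 11, and all 7 were still called, while 25.5% of all rows were called.

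No gene was called between yellow and green or between brown and yellow rRNA-depleted fruit by edgeR. The backgrounds were 7.06% (2.56% higher and 4.49% lower) and 0%. At an unadjusted p under 0.05 there were 5 and 4 of the 65 genes, beside 8266 and 6498 of all 49283 rows. DESeq2 called 1 in each comparison, beside 9.65% and 2.66% of all rows. Without brown replicate 3, 2 genes were called between yellow and green, beside 8.75% of all rows.

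Among poly(A)-depleted libraries, 61 genes were tested across stages. Between yellow and green fruit 3 of them (4.92%) were called by edgeR, 2 higher and 1 lower in yellow fruit, against a background of 10.8% of all 48201 rows (2.95% higher and 7.85% lower). FvH4_c6g00010, with the CPM given above, was higher by 1.03 ± 0.21 on the log2 scale (edgeR, adjusted p = 0.0211). Its yellow libraries were all above its green ones.

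FvH4_c19g00010 was at 3.71, 3.98 and 2.92 CPM in green, 5.03, 7.56 and 6.03 in yellow and 4.62, 7.5 and 4.72 in brown poly(A)-depleted libraries. Yellow and green did not overlap, and the log2 fold change was 0.87 ± 0.23 (edgeR, adjusted p = 0.0426). FvH4_c6g00040 was at 9.33, 12 and 9.13 CPM in green, 5.53, 3.82 and 4.77 in yellow and 6.47, 6.4 and 3.08 in brown ones. It was lower in yellow fruit by edgeR (-1.05 ± 0.28, adjusted p = 0.0449), also with no overlap.

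Calls in this comparison depended on the libraries and the scaling. All 3 were lost without any 1 green library or without yellow replicate 2 or 3, beside 0.95 to 2.69% of all rows called. The call of FvH4_c6g00040 was also lost without yellow replicate 1 or brown replicate 2. The count was 15 without brown replicate 1 and 19 without brown replicate 3, which enter this comparison only through the spread and the scaling, while 38.1% and 41.6% of all rows were called. Without both it was 26, beside 53% of all rows, in an alternative that leaves 1 brown library, assumed to vary like the other groups. With DESeq2 it was 12 (6 higher, 6 lower), beside 29% of all rows. With TMM factors from annotated genes it was 10, all higher, beside 27.2% of all rows called and 19% called higher.

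The stage difference of the highest-numbered genes of contig 3 was not called in poly(A)-depleted libraries. FvH4_c3g00220 was at 797, 575 and 1359 CPM in green, 267, 47.9 and 45.4 in yellow and 539, 155 and 53.3 in brown ones. All yellow and brown libraries were below all green ones. The log2 fold change of yellow over green was -2.89 ± 1.1 (edgeR, adjusted p = 0.0929). That of brown over green was -1.80 ± 1.06 (edgeR, adjusted p = 0.328), beside -1.86 ± 0.55 in rRNA-depleted libraries, and the interaction for this gene had an adjusted p of 0.284 by edgeR (0.0197 with the block within stage).

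No gene was called between brown and green or between brown and yellow poly(A)-depleted fruit by edgeR. The backgrounds were 5.66% (1.28% higher and 4.38% lower) and 0%. At an unadjusted p under 0.05 there were 9 and 2 of the 61 genes, beside 11685 and 4436 of all 48201 rows. DESeq2 called 7 and 0, beside 16.1% and 0.108% of all rows. Without brown replicate 1 the first count was 11 (25.9% of all rows called) and without yellow replicate 1 it was 1 (4.72%). Without brown replicate 3 the counts were 6 and 12, beside 20.6% and 33.4% of all rows. The 3 brown poly(A)-depleted libraries also stood far apart on contig 3. For example, FvH4_c3g00120 was at 1709, 693 and 274 CPM in them.

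FvH4_c20g00010, named after its values were seen, had 1 library far from the others of its group. It was at 0.472, 0.157 and 1.01 CPM in green, 2.25, 0 and 1.12 in yellow and 0.44, 1.18 and 14.6 in brown rRNA-depleted libraries. The poly(A)-depleted values were 11.7, 11.8 and 7.99, then 10.8, 10.8 and 11.1, then 8.66, 15.7 and 9.78 CPM. Brown replicate 3 alone of the rRNA-depleted libraries lay within the poly(A)-depleted range, and this library also had the highest intergenic share of its kind (5.02%). The part of that library's make-up in its value was not tested. The difference between kinds was called by edgeR (2.86 ± 0.55, adjusted p = 0.000139; 3.64 without the 3 libraries that stand apart) and that between brown and green rRNA-depleted fruit was not (3.21 ± 1.3, adjusted p = 0.114).

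**Figure D5:**
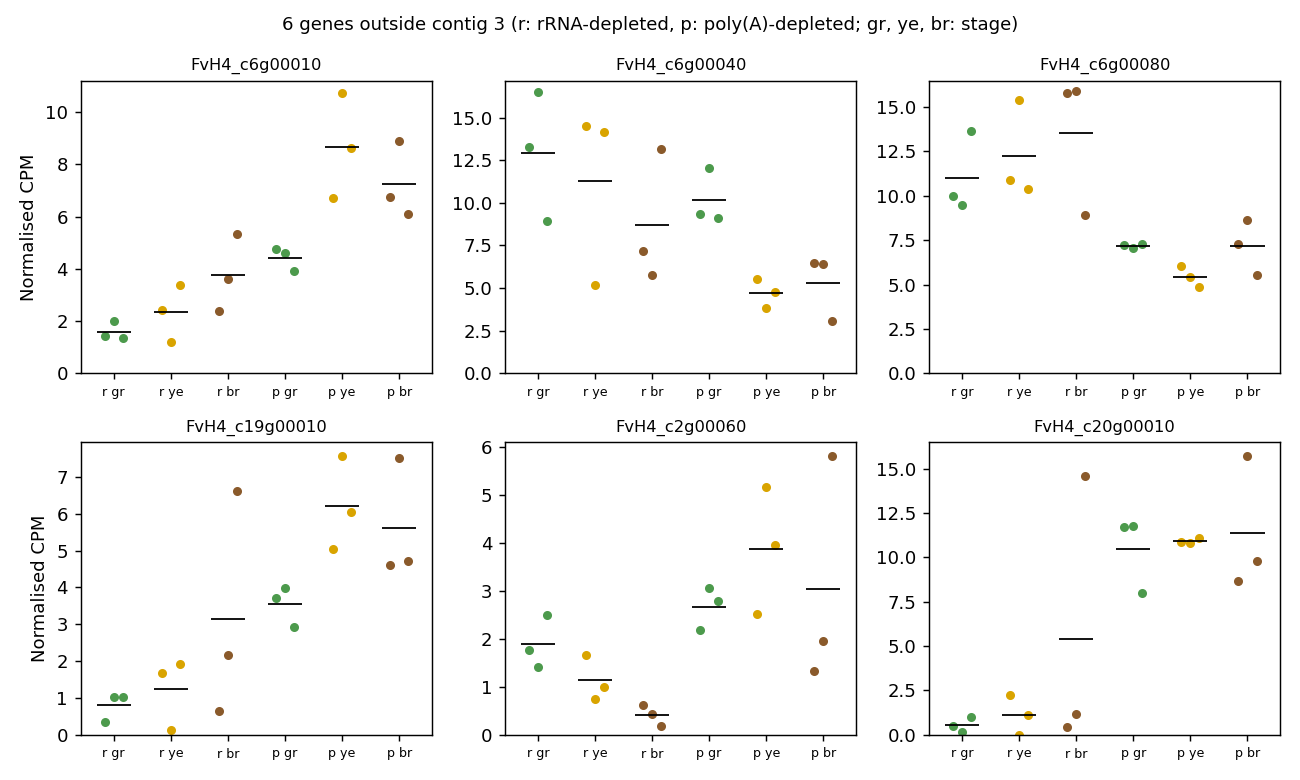
TMM-scaled CPM of 6 genes outside contig 3 in each library (points) with the group means (lines); r is rRNA-depleted, p poly(A)-depleted, and gr, ye and br are the green, yellow and brown stages. FvH4_c6g00010 lies higher and FvH4_c6g00080 lower in the poly(A)-depleted libraries of each stage, and 1 brown rRNA-depleted library of FvH4_c20g00010 lies at 14.6 CPM.

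The deposited lncRNA models also lie on these contigs, with positions as the exon file gives them and a build not given in the sources used here. Of 97 lncRNA rows on 16 of the contigs, 67 were intergenic, 24 antisense to exons, 3 antisense within introns and 3 intronic, and 18 had no count. Contig 3 held 2 of them, both antisense to exons. No lncRNA row on these contigs had a mean above 100 CPM, and 30 were above 1 CPM.

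Within a set limit, in 3 cases an antisense row and an annotated gene had nearly the same counts. The antisense row's count divided by the gene's was between 0.9 and 1.1 in every library where both had at least 20 counts. The 184 pairs compared set annotated genes against lncRNA rows of any class on the same contig, whether or not they overlap. Both rows of a pair had at least 20 counts in at least 6 libraries. The antisense row at 3212 to 4694 on the minus strand of contig 3 stood at a ratio of 1 to 1.02 to FvH4_c3g00010 in 18 libraries. That at 44733 to 45860 on the plus strand of contig 6 was at 1 to 1.03 times FvH4_c6g00060 in 17 libraries. The third, at 31695 to 32568 on the plus strand of contig 15, was at 1 to 1.09 times FvH4_c15g00060 in 17 libraries. From these counts alone, reads of the gene and of the antisense row cannot be told apart. The pairs were matched by their counts, since positions of the genes were not used. Whether the rows of a pair overlap and hold the same reads was not tested. Of the 3 genes, FvH4_c3g00010 was called lower in poly(A)-depleted libraries (log2 fold change -1.50 ± 0.34, edgeR, adjusted p = 0.000652). FvH4_c6g00060 (1.03 ± 0.29, edgeR, adjusted p = 0.003) and FvH4_c15g00060 (0.73 ± 0.3, edgeR, adjusted p = 0.0319) were called higher, the latter not without poly(A)-depleted green replicate 2, rRNA-depleted green replicate 3, yellow replicate 1 or brown replicate 1. A further pair lay just outside the limit, with the antisense row at 14790 to 17114 on the plus strand of contig 19 at 1 to 1.104 times FvH4_c19g00020 in 17 libraries, and this gene was also called higher (1.08 ± 0.28, edgeR, adjusted p = 0.00172). All 4 values are uncertain for that reason.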

How the data were processed

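The authors deposited 1 table of raw read counts per gene or lncRNA row for 18 libraries, and an exon table of the lncRNA models. The submitters' processing notes name TopHat2 2.1.2, STAR 2.5.4b and Trim Galore 0.4.2. For the genome build, the counting tool and its strand setting the sources used here give nothing. Start and end positions of the lncRNA exons were taken as deposited by the authors and given no other unit. The genes, lists and tests were chosen with earlier results of these data known.

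Counts were analysed with edgeR 4.0.16 in R 4.3.3: TMM over all rows, its low-count filter, quasi-likelihood tests, and Benjamini-Hochberg adjustment over all rows tested. Comparisons of kinds and the interaction used all 18 libraries, and stages were compared within each kind (9 libraries). The labels call the replicates biological. Each p-value sets a difference against the spread between these pools of fruit, with every library taken as independent in the main fits. No 2 replicates agreed within sampling noise (chi-square per row 9.00 to 603). Named genes were the 6 with the highest mean CPM and, per comparison, up to 2 largest rises and falls among called genes without overlap between groups and with at least 1 CPM in the higher group; for the interaction, the 2 smallest adjusted p. Alternatives were DESeq2 1.42.0, other scalings, no filter, a replicate block and leaving out libraries. Scripts were tested on simulated data.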

Additional observations from a re-analysis of the deposited data

How the results depend on the processing

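The number of genes called between kinds, 46 in the main fit, was 39 to 59 under all alternatives run. Of all rows, 70.7 to 83.3% were called. With 1 library left out the number was 39 to 50 (72.4 to 80.2% of all rows). For the interaction it stayed at 0 (0.00187 to 11.3% of all rows), except under choices made after seeing the data. It was 2 without poly(A)-depleted brown replicate 1, rRNA-depleted brown replicate 3 and rRNA-depleted yellow replicate 2 together (19.8% of all rows). It was 4 with a replicate block within stage (17.4%). FvH4_c6g00080 reversed from -0.90 to 0.62 with library size alone. For rRNA-depleted yellow against green (0 called) DESeq2 gave 1 (9.65% of all rows) and leaving out 1 library 0 to 2 (3.75 to 8.96%). Leaving out the 2 libraries that stand apart gave 2 (10.5%). For brown against green (7) leaving out 1 library gave 0 to 10 (7.96 to 20.2%) and the 2 libraries 11 (25.5%). For brown against yellow (0) DESeq2 gave 1 (2.66%) and the 2 libraries 2 (10.3%). For poly(A)-depleted yellow against green (3) DESeq2 gave 12, library size alone 1, TMM from annotated genes 10, leaving out 1 library 0 to 19, and leaving out brown replicates 1 and 3 gave 26 (53% of all rows). For brown against green (0) these were 7 with DESeq2, 3 with TMM from annotated genes, 0 to 11, and 9. For brown against yellow (0) they were 0 to 12, and 3. The causes were not tested.

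With the counts of annotated genes as the total, the share of the 103 genes was 2.40, 3.15 and 2.35% in green, yellow and brown poly(A)-depleted libraries, and 1.17 and 0.901% in green and brown rRNA-depleted libraries. Without FvH4_c3g00060 it was 1.58 and 1.36% in green and brown poly(A)-depleted libraries. Leaving out 1 library gave 1.69 to 1.81%, 1.89 to 2.42% and 1.61 to 1.68% in poly(A)-depleted groups, and 0.860 to 0.904%, 0.489 to 0.714% and 0.567 to 0.749% in rRNA-depleted groups.

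A fit with the replicate number as a block called 50 genes between kinds (76.8% of all rows) and 0 for the interaction (0.706%). It called 9 for rRNA-depleted brown against green (14.7%) and 3 for poly(A)-depleted yellow against green (14.5%). The other 4 comparisons had 0. Of all rows, 7.12% were called for rRNA-depleted yellow against green and 5.77% for poly(A)-depleted brown against green. For brown against yellow it was 0% in both kinds. The labels do not say that equal numbers share fruit. Of 45 same-numbered pairs, 21 had deviations correlated above 0.1 (range -0.378 to 0.654), and 20 correlated best with their own number, so the numbers were not taken to pair the samples across stages. Between the kinds at the same stage, 8 of 9 pairs were above 0.1 (0.223 to 0.654) and correlated best with their own number, and brown replicate 2 was at -0.145. This is a hint of pairing within a stage from the data, not from the design. A replicate block within stage called 50 genes between kinds (33 higher, 17 lower; 76.7% of all rows) and 4 for the interaction. At depths down to 9488099 counts, 28 genes had too few reads to be tested in any comparison.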
